A study of Mus musculus with 16 samples.

Results

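At day 4 the study's 8 arrays formed a pair of replicate sets that differed from each other in the level of many genes, and these differences are described here. The arrays were chosen by their titles: the 4 arrays of day 4 labelled replicate 1 are called set 1 and the 4 labelled replicate 2 are called set 2, together 8 of the 16 arrays of the series. Each set held 1 array of clone 10 without 4-hydroxytamoxifen (OHT-), clone 10 with it (OHT+), clone 15 OHT- and clone 15 OHT+. Both clones are mouse embryonic stem (ES) cells of a 129/B6 hybrid background. Rybp was depleted by OHT (800 nM, 24 hours). It encodes a subunit of Polycomb repressive complex 1. The labels name neither the modified allele nor the recombinase. The labels call the OHT- cells wild-type controls. Per the labels, all cells grew in serum medium with ESGRO, a brand of leukaemia inhibitory factor (LIF), on gelatin or on feeders of irradiated mouse embryonic fibroblasts, without the surface of each array being stated. It is not stated either whether the sets were separate cultures, separate RNA preparations or separate hybridisations, so the p-values cover only the array-to-array spread, and part of it may be technical. Each set holds 1 array of every condition, so the condition is balanced between the sets, while anything handled together within a set cannot be told apart from the set. The 8 arrays of day 12 carry the same replicate numbers and serve as a comparison. No label ties set 1 of day 4 to set 1 of day 12.

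ES cells divide quickly and keep their pluripotent state through LIF, which acts through Stat3, and through a network of transcription factors that includes Pou5f1, Sox2, Nanog, Klf2, Klf4 and Esrrb. Serum and growth factors activate the kinase ERK, whose first transcripts, the immediate early genes such as Egr1 and Fos, appear and decay quickly. Amino acid supply, oxygen, DNA damage and contact with matrix each have their own sensitive gene programmes, among them the ATF4, hypoxia, p53 and YAP responses, and these were followed here through lists of their genes.

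In the text, values per array are deposited intensities on a linear scale, given for each set in the order clone 10 OHT-, clone 10 OHT+, clone 15 OHT- and clone 15 OHT+. Set means carry the SD with n = 4 arrays. Differences between the sets are on the log2 scale, set 2 minus set 1, with standard errors, so that a negative value means lower in set 2. Higher and lower are used of genes whose limma p-value, adjusted by Benjamini-Hochberg over all 18193 genes, was under 0.05. At 1 probe set the targeted transcript went with the labels in both sets. A bright Rybp probe set, which is also annotated to its pseudogene, read 2047 and 2448 in the OHT- arrays of set 1 and 3319 and 3200.2 in those of set 2, against 88.5 and 84.9 and then 91.0 and 125 in the OHT+ arrays. A further Rybp probe set with the same annotation rose with OHT in both clones. It read 2127, 4443, 297 and 4374 in set 1 and 2771, 7611.5, 255 and 7580 in set 2. Markers of ES cells were strong on all 8 arrays, with Pou5f1 at 11593, 11808, 13405 and 11642 in set 1 and 12590.0, 12040.0, 12476 and 10817 in set 2.

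The replicate set took the largest share of the variation of bright genes among the day 4 arrays. Over the 9096 genes above the median level, the set accounted for 62.5% of the summed squares, OHT for 16.4%, the clone for 7.82% and the rest for 13.3%. Over all 18193 genes, which adds the dim ones, the set accounted for 21.9%, OHT for 16.5%, the clone for 13.3% and the rest for 48.3%. At day 12 the set accounted for 24.0% and OHT for 41.1% in bright genes. Correlations between arrays were taken over the 9096 genes above the median of the mean level over all 16 arrays. At day 4 they lay between 0.972 and 0.988 within a set and between 0.931 and 0.951 across sets. At day 12 they lay between 0.938 and 0.981 across sets. In a principal component analysis of all 16 arrays the first component, with 30.8% of the variance, placed the 4 arrays of day 4 set 2 between 29.5 and 32.1. The other 12 arrays, day 4 set 1 and all of day 12, lay between -21.5 and 1.11.

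**Figure D1:**
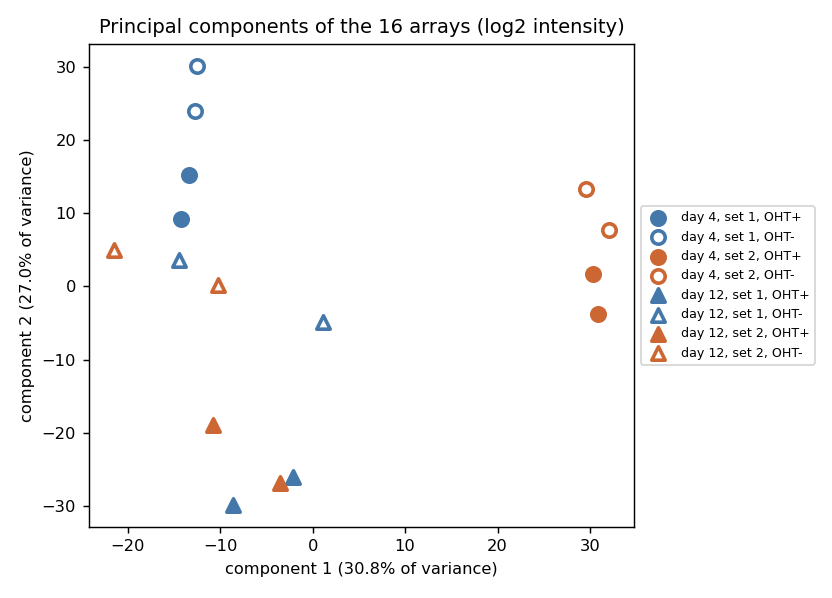
Scores of the 16 arrays on the first 2 principal components of log2 intensity (9096 genes above the median level over all 16 arrays). Circles are day 4, triangles day 12, blue set 1, orange set 2, filled OHT+ and open OHT-. The 4 orange circles of day 4 set 2 stand apart at component 1 scores of 29.5 to 32.1, and the other 12 arrays lie at or below 1.11.

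In set 2, 1596 of the 18193 genes (8.77%) were higher and 2642 (14.5%) were lower than in set 1 by limma with clone and OHT as terms, 4238 in all (23.3%). Among them 215 genes (1.18%) were higher and 621 (3.41%) lower by at least 2-fold. The arrays of the sets did not overlap in 2010 genes that were above in set 2 (11.0%) and in 3060 that were below (16.8%). Bright genes passed more often, 15.7% of the 9096 as higher and 24.4% as lower, and most lists below consist largely of bright genes. The counts depend on the number of arrays: without any 1 of the 8 arrays, between 752 and 953 genes were higher and between 1437 and 1643 lower. With the 4 conditions as pairs in place of additive clone and OHT terms, 1166 were higher and 2090 lower, and both fits shared 3128 of the 4238 calls.

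Among the lower genes Egr1, the immediate early transcription factor induced by ERK, was the extreme. Its arrays read 6461, 6616, 5089 and 7242 in set 1 and 389, 434, 360.0 and 264 in set 2. Every array of set 1 was thus far above every array of set 2, a difference of -4.15 ± 0.18 (limma adjusted p = 0.00313). By the naming rule, which took the 15 largest decreases and the 15 largest increases among bright genes with the same sign in all 4 pairs, the next were Palm, a lipid-anchored membrane protein (-2.28), and Scaf1, a partner of the RNA polymerase II tail (-2.27). Several others serve transcription or its machinery. The large subunit of RNA polymerase II, Polr2a, read 1557, 2010.3, 1363 and 2155 in set 1 and 408, 589.6, 412 and 459 in set 2 (-1.91 ± 0.11). Cyclin K, the partner of the transcription kinases Cdk12 and Cdk13 encoded by Ccnk, went from 705 to 183 (-1.96), and the chromatin remodeller gene Chd4 from 2369 to 621 (-1.93). For Chd4 this holds only for its brightest probe set, since the other 2 read 1.26 and 1.27. The coiled-coil protein gene Prrc2a was nearly constant within each set, with 3626, 3525, 3677 and 3552 in set 1 and 1001, 921, 867 and 923 in set 2 (-1.96 ± 0.07). The rest of the 15 were Wdtc1 (-2.04), the clathrin adaptor gene Ap2a1 (-1.95), the RNA-binding gene Pcbp3 (-1.93), Gpa33 (-1.92, with a further probe set at 0.01), the phosphatase gene Ptp4a3 (-1.87), the stress gene Sesn2 (-1.84), the pentraxin gene Nptx2 (-1.84) and the peptidase gene Dpp9 (-1.81). Limma adjusted p of these 15 genes ran from 0.00313 to 0.0133.

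Among the higher genes was Adm, the secreted vasodilator peptide adrenomedullin, which low oxygen induces. It read 293, 206, 271 and 139.6 in set 1 and 1073, 910.1, 1015 and 683 in set 2. The lowest array of set 2 was above the highest of set 1, and the difference was 2.05 ± 0.13 (limma adjusted p = 0.0032). Its second probe set read 2.27. Knl1, a scaffold of the kinetochore, went from 373 to 1608 (2.16 ± 0.18) with a second probe set at 0.53, and Smc4, a condensin subunit, from 4371 to 13361 (1.62 ± 0.08) with further probe sets at 0.61 and 0.00277. The zinc finger transcription factor genes Klf6 (1.90) and Sp3 (1.87), the RNA-binding gene Taf15 (1.96) and the mRNA export gene Fyttd1 (1.72) were in this group too. Klf6 was steady within set 2, with 189.7, 163, 220.2 and 149.6 in set 1 and 681, 659, 658 and 669 in set 2. The ribosomal protein gene Rpl27a read 340.3, 368, 414 and 489 in set 1 and 1526, 1402, 1592 and 1575 in set 2 (1.93 ± 0.10). The others were Nwd1 (2.16), the flippase gene Atp8a1 (1.76), the keratin gene Krt19 (1.69), the deubiquitinase gene Otub1 (1.59), 1700012D14Rik (1.58), Vstm5 (1.57) and the splicing regulator gene Rbfox2 (1.55). Other probe sets went the opposite way for Atp8a1 (-1.02, -1.05 and -1.22 among the bright ones) and for Rbfox2 (-0.93, -1.04 and -0.38). A further probe set of Otub1 read 0.20, and those of Fyttd1 read 2.09, 0.54 and -0.30. Limma adjusted p of the 15 ran from 0.00313 to 0.0396, and Nwd1, the largest of them in p, did not pass with the conditions as pairs (limma adjusted p = 0.0733).

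**Figure D2:**
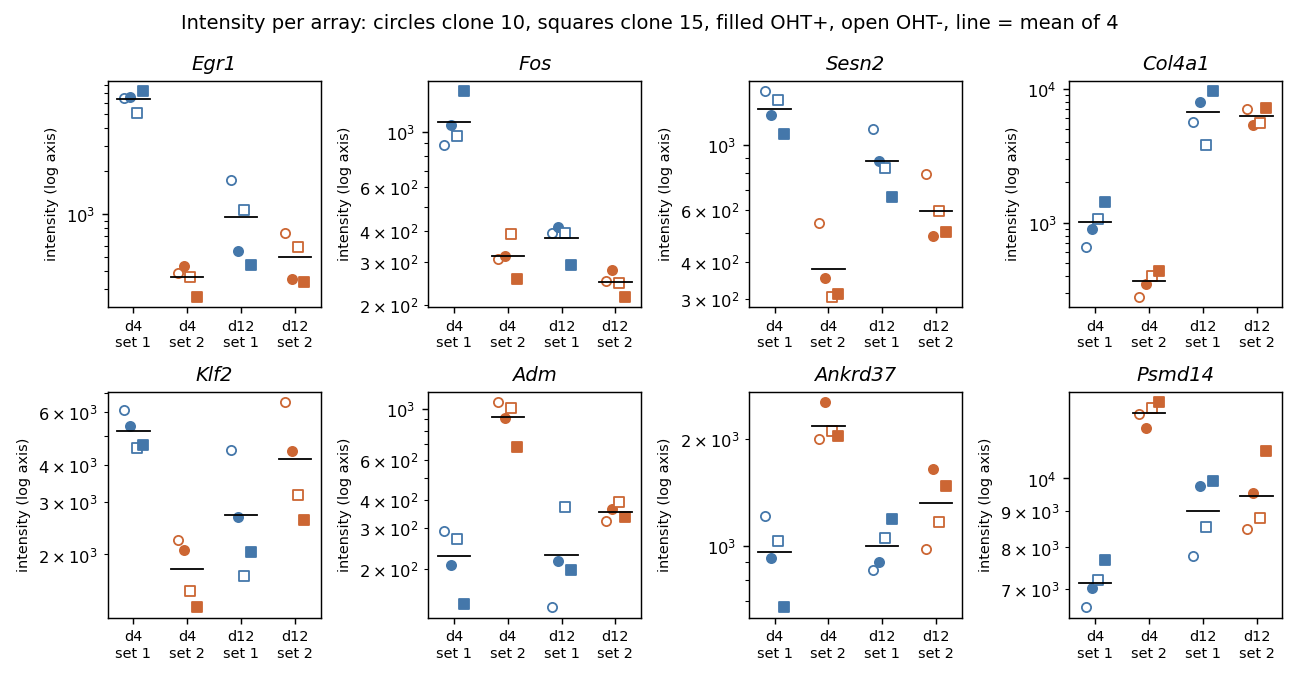
Intensity on each of the 16 arrays (log axis) of 8 named genes, grouped by day and set, with lines at the mean of 4 arrays. At day 4 all arrays of set 2 (orange) lie below set 1 (blue) for Egr1, Fos, Sesn2, Col4a1 and Klf2 and above it for Adm, Ankrd37 and Psmd14.

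Immediate early genes and the feedback genes of FGF and ERK signalling were more often lower than higher in set 2. Of 27 measured members of this list 8 were lower and 4 higher (29.6% and 14.8%, against 14.5% and 8.77% of all genes), and their median difference was -0.40 against -0.07 for all genes. Among its 21 bright members the shares were 38.1% and 19%, against 24.4% and 15.7% of all bright genes. With the conditions as pairs 5 members were lower and 3 higher. Fos, the partner of Jun in the AP-1 factor, read 890.3, 1068, 966 and 1461 in set 1 and 309, 318, 387 and 254 in set 2 (-1.78 ± 0.21, limma adjusted p = 0.00711). The highest array of set 2 was less than the lowest of set 1. Etv5, an Ets factor that FGF signalling maintains, went from 9289 to 4334 (-1.09 ± 0.08), but its further probe sets read 0.03 and -0.35. Dusp4, a phosphatase that switches ERK off, went from 263 to 139 (-0.92) and did not pass with the conditions as pairs (limma adjusted p = 0.0586). Not all of the list went down. Ier3, an early gene that LIF also induces, was higher, at 2082, 1680.4, 2380.1 and 1395 in set 1 and 4706, 4965, 5089 and 4740.0 in set 2 (1.40 ± 0.15).

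The network of the naive pluripotent state split. Of 28 measured naive pluripotency genes 13 were lower and 3 higher in set 2 (46.4% and 10.7%), with a median of -0.15. All 28 are bright, and of all bright genes 24.4% were lower and 15.7% higher. Klf2, a factor of the naive state, read 6124, 5407, 4558 and 4651 in set 1 and 2234, 2064, 1505 and 1327 in set 2 (-1.56 ± 0.09), and the sets did not overlap. The transcriptional regulator gene Nacc1 went from 1602 to 634 (-1.32), the cell cycle factor gene Mybl2 from 7863 to 3709 (-1.08) and the LIF target gene Klf5 from 3329 to 1846 (-0.85). A second bright probe set of Klf5 read 0.11, and the mean of both did not pass (-0.37, limma adjusted p = 0.0561). Esrrb, an orphan nuclear receptor of the network, went from 4531 to 1916 (-1.24), but its other probe sets read -0.12 and 0.63, and the mean of its 3 bright probe sets did not pass (-0.24, limma adjusted p = 0.233). With such means for every gene, 9 members of the list were lower and 2 higher. Klf4, named after its values were seen, was lower on average (-0.48) with overlapping arrays, at 3859, 4361, 3112 and 4465 in set 1 and 2602, 3091, 2254 and 3371 in set 2. A dimmer probe set of Klf4 read -1.21. Genes at the centre of the network, named after their values were seen, did not pass the test. Pou5f1 differed by -0.02 ± 0.08 (limma adjusted p = 0.92), Nanog by 0.05 ± 0.07 (limma adjusted p = 0.679), Sox2 by 0.21 ± 0.07 (limma adjusted p = 0.0863) and Zfp42 by 0.30 ± 0.09 (limma adjusted p = 0.076). The signs of Pou5f1 and Nanog turned under some settings. The summed intensity of the 28 genes ran from 184120 to 192420 in set 1 and from 168320 to 178060 in set 2.

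Lists of matrix genes and of primitive endoderm, an extraembryonic lineage that ES cultures can give off and that secretes basement membrane, held more lower than higher genes in set 2. Of 34 measured endoderm genes 10 were lower and 0 higher (29.4% and 0%), with a median of -0.36. Of 30 matrix and adhesion genes 14 were lower and 2 higher (46.7% and 6.67%), with a median of -0.27. Among bright members the shares were 53.8% and 0% of 13 endoderm genes and 48.3% and 6.9% of 29 matrix genes. Of all bright genes 24.4% were lower and 15.7% higher. The lists share several genes. The collagen IV gene Col4a1 read 654, 902, 1057 and 1419.8 in set 1 and 279.6, 345, 402 and 432 in set 2 (-1.43 ± 0.10, limma adjusted p = 0.00338), and Col4a2, which encodes its partner chain, 387, 388, 531 and 716 in set 1 and 151, 183, 195 and 252 in set 2 (-1.35 ± 0.11). The sets did not overlap in either gene. The laminin genes followed, with Lama1 going from 1097 to 487 (-1.16 ± 0.08) and Lamc1, named after its values were seen, from 1919.8 to 934 (-1.04 ± 0.08). Among adhesion genes Itga5, the fibronectin receptor subunit, went from 346 to 156 (-1.14) and the actin crosslinker gene Actn1 from 4808 to 2346 (-1.04 ± 0.07). The endoderm factors Sox17 (from 107 to 37.2, -1.41) and Foxq1 (from 155 to 75.5, -1.09) were dim and did not pass with the conditions as pairs (limma adjusted p = 0.0694 and 0.0712), under which 6 of the 34 endoderm genes were lower. The summed intensity of the endoderm list was 26351 to 32978 in set 1 and 24157 to 26960 in set 2. In RNA from a whole culture, fewer cells of a type and less RNA per cell cannot be told apart.

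Targets of YAP and of serum response factor, which answer to cell spreading and serum, were counted too. Of 24 measured members 9 were lower and 3 higher (37.5% and 12.5%), with a median of -0.38. Among the 18 bright members the shares were 44.4% and 16.7%, against 24.4% and 15.7% of all bright genes. Ccn1, a secreted matrix protein and YAP target, read 1435, 1869.8, 1005 and 2495 in set 1 and 431, 644, 424 and 765 in set 2 (-1.56 ± 0.17), and all 4 of its probe sets were lower, from -1.56 to -2.74. Feeder fibroblasts express many of these genes, and they were looked at with their own markers. Of 46 measured feeder markers 8 were lower and 4 higher (17.4% and 8.70%), with a median of -0.07. Among the 31 bright ones the shares were 25.8% and 12.9%, close to those of all bright genes. Among the 8 lower markers, the fibrillar collagen gene Col1a1 read 299.6, 429, 289 and 334 in set 1 and 108, 174, 98.6 and 105 in set 2 (-1.50 ± 0.13). The surface protein gene Thy1 went from 477 to 189.6 (-1.36 ± 0.11). Both were picked by the size of their difference, and the 4 higher markers, which went the other way, are not named. The summed intensity of the 46 markers was 38674, 41068, 35468 and 41671 in set 1 and 34199, 36584, 32032 and 33407 in set 2. The ranges of the sets overlapped across conditions, but within each clone and OHT condition set 2 was lower. In set 1, 2 members and in set 2, 1 member had a mean under the 25th percentile of all intensities. The part of feeder or endoderm cells in the set difference was not tested.

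The response to amino acid shortage is run by the transcription factor ATF4. Of 41 measured members 16 were lower and 2 higher (39.0% and 4.88%), with a median of -0.30, and 23 did not pass. With means of bright probe sets 11 were lower and 1 higher. In the main fit the shares among the 38 bright members were 42.1% and 5.26%, against 24.4% and 15.7% of all bright genes. Atf4 itself, named after its values were seen, read 7218, 7702, 6408 and 6809 in set 1 and 4776, 4404, 3970.0 and 4112 in set 2 (-0.71 ± 0.07), with dimmer probe sets at -0.07 and 0.47. Sesn2, a sensor that restrains the growth kinase mTORC1 and a target of ATF4 and p53, read 1516, 1259, 1418 and 1089 in set 1 and 542, 353, 304 and 310.3 in set 2 (-1.84 ± 0.14), and its second probe set -2.49. The secreted glycoprotein gene Stc2 went from 645 to 229.8 (-1.49), while its other probe sets read 0.16 and 0.72, so that their mean did not pass (limma adjusted p = 0.115). The alanyl-tRNA synthetase gene Aars, which charges alanine to its tRNA, went from 5805 to 3288 (-0.82 ± 0.09) and the leucine transporter gene Slc7a5 from 1562 to 923 (-0.76 ± 0.11). Cebpb (-0.80) and the glutathione-degrading enzyme gene Chac1 (-0.71) did not pass with the conditions as pairs (limma adjusted p = 0.0867 and 0.0639). The related gene Ppp1r15a, which ends the stress block on translation and was counted with the endoplasmic reticulum genes, read 1065, 1235, 878 and 1426 in set 1 and 403, 364, 389.7 and 362 in set 2 (-1.58 ± 0.16).

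The letters TGATGNAA, the shared core of the ATF4 response element, were searched on both strands of RefSeq promoter windows (GRCm38.p6, 250 bases before to 50 after a start). They were in 3.24% of the 14452 genes with a window, in 13 of 34 members of the list, in 6 of the 13 lower members and in 0 of the 2 higher ones. Windows upstream of the start were sought for some named lower members, chosen after their values were seen. The bases around the match, in capitals, are shown for 2 of them, Aars and Chac1. The same search gave no window to show for Sesn2, Stc2, Cebpb, Slc7a5 and Atf4. Aars lies at chr8:111033690-111033769 on the plus strand and Chac1 at chr2:119351009-119351088 on the plus strand.
Aars: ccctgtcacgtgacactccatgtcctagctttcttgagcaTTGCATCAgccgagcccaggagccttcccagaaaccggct
Chac1: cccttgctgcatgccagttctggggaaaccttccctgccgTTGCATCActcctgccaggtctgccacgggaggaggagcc
In both, the capitals are the reverse complement of the searched letters. A match of letters is not a binding site.

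Of 31 measured targets of p53 and inhibitors of the cell cycle 13 were lower, 2 higher and 16 did not pass (41.9% and 6.45% called), with a median of -0.13. Among the 27 bright members the shares were 48.1% and 7.41%, against 24.4% and 15.7% of all bright genes. Cdkn1a, the p21 inhibitor of cyclin-dependent kinases, read 1662, 1655, 1221 and 1238 in set 1 and 863, 805, 730.3 and 593 in set 2 (-0.95 ± 0.08). The gene of the p53 ligase, Mdm2, went from 2422 to 1331 (-0.86), although a second bright probe set read 0.21. The death gene Bbc3, also called Puma, went from 1087 to 621 (-0.81 ± 0.07) and the nuclease gene Aen from 2942 to 1701 (-0.78 ± 0.08), with a second bright probe set of Aen at 0.12. With the conditions as pairs 9 members were lower and 2 higher.

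Hypoxia genes were more often higher than lower. Of 30 measured members of the glycolysis and hypoxia list 10 were higher and 4 lower (33.3% and 13.3%), with a median of 0.20. Among the 28 bright members 35.7% were higher and 14.3% lower, against 15.7% and 24.4% of all bright genes. Beside Adm, the largest were Ankrd37, an ankyrin repeat gene induced by HIF-1, with 1214, 924, 1035 and 671 in set 1 and 1993, 2540.1, 2104 and 2034 in set 2 (1.20 ± 0.18), and Ndrg1, a stress gene of the same response, with 1119.6, 1086, 1154 and 1165 in set 1 and 2153, 2877, 2197 and 2338 in set 2 (1.07 ± 0.11). The sets did not overlap in either of the 2. Further probe sets of Ndrg1 read 1.19, 1.18, 0.60 and 0.30. Bnip3, a mitophagy receptor, went from 9177 to 14438 (0.66 ± 0.09). The genes that were lower included a lactate exporter, Slc16a3, with 1507, 1733, 2119 and 1805 in set 1 and 817, 807, 887 and 815 in set 2 (-1.10 ± 0.10). The liver-type phosphofructokinase of glycolysis, Pfkl, went from 10173 to 5859.6 (-0.79), with further probe sets at -0.57 and 1.11. The list was also above 0 at day 12, with a median of 0.24 against -0.03 for all genes, and all 10 higher members had a positive difference there. The summed intensity of the list was 228760 to 251800 in set 1 and 261260 to 274230 in set 2.

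The core letters of the hypoxia response element, ACGTG on either strand, were in 26.1% of the promoter windows, in 21 of the 27 members with a window, in 5 of the 9 higher and in 3 of the 4 lower members. The windows of 2 higher genes are shown to place these letters, with matches in capitals and chosen after their values were seen. The same search upstream of the start gave no window to show for Adm and Ndrg1. Bnip3 lies at chr7:138909575-138909654 on the minus strand, where the matches on the 2 strands overlap. Ankrd37 lies at chr8:45999851-46000100 on the minus strand, with matches near both ends.
Bnip3: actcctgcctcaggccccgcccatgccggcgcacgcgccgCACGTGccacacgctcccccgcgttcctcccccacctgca
Ankrd37: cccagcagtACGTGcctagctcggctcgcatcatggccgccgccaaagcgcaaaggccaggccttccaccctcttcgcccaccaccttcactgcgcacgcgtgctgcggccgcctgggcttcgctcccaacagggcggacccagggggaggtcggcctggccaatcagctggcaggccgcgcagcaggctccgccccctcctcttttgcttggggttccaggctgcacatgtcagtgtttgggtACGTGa
The shares of higher and lower members that hold the letters do not set the higher members apart.

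The proteasome, the complex that degrades ubiquitin-tagged proteins, had the largest share of higher members of the 39 lists. Of 29 measured subunits 17 were higher and 1 lower (58.6% and 3.45%), with a median of 0.33. All 29 are bright, and of all bright genes 15.7% were higher and 24.4% lower. Most differences were small, with a lower quartile of 0.11 and an upper quartile of 0.49, and 11 subunits did not pass. Psmd14, the deubiquitinase of the lid, read 6590.3, 7027, 7198 and 7674 in set 1 and 12298, 11784, 12568 and 12803 in set 2 (0.80 ± 0.07). The core subunit gene Psma5 went from 10969 to 16930.0 (0.63 ± 0.07) and the ATPase gene Psmc1 from 3809.6 to 5771 (0.60 ± 0.07). The 1 lower subunit was Psmd3, at 2554, 2579, 2286 and 2426 in set 1 and 1297, 1396, 1349.9 and 1173 in set 2 (-0.92 ± 0.08). Summed over the 29 genes, the arrays of set 1 lay between 235260 and 238740 and those of set 2 between 287610 and 295570. At day 12 the median of the list was -0.01 and 8 of the 17 higher subunits kept a positive sign. With each array centred on the housekeeping list 13 subunits were higher.

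Lists of lipid, protein and RNA production differed among themselves. Most of their members are bright, and of all bright genes 15.7% were higher and 24.4% lower. Of 20 measured cholesterol synthesis genes 8 were higher and 3 lower (40% and 15%), with Sc5d, a late enzyme of the pathway, going from 527 to 934 (0.82). Further probe sets of Sc5d read 0.18 and 0.09. The lower members included Srebf2, the master factor of the pathway, which went from 1259 to 601 (-1.08 ± 0.11), and the last enzyme, Dhcr7, which went from 2066 to 921 (-1.18 ± 0.11). Of 36 splicing factors 10 were higher and 4 lower (27.8% and 11.1%), led by the kinase gene Clk4 (from 281 to 669, 1.26 ± 0.10). With each array centred on the housekeeping list 5 splicing factors were higher and 5 lower. Of 39 ribosome biogenesis and MYC target genes 10 were higher and 4 lower (25.6% and 10.3%), and 7 and 5 with that centring. Of 43 ribosomal protein genes 3 were higher and 1 lower (6.98% and 2.33%). These were Rpl27a, Rpl14 (0.74) and Rps6 above and Rpl37 (-0.56) below. Chaperones of the endoplasmic reticulum divided, with 6 of 24 higher and 7 lower (25% and 29.2%), and 3 and 7 with that centring. Pdia3, a disulfide isomerase, went from 2936 to 6625 (1.17 ± 0.07), whereas its lectin partner calreticulin, Calr, read 12839, 12819, 13800.0 and 13918 in set 1 and 6015, 6001, 5990.2 and 5995 in set 2 (-1.15 ± 0.06). All 3 probe sets of Calr were lower, from -1.15 to -1.33. Among heat shock genes 7 of 25 were higher and 5 lower (28% and 20%). But 2 were higher and 5 lower with that centring, and 2 higher and 4 lower with the conditions as pairs. Among oxidative stress genes 5 of 29 were higher and 5 lower (17.2% each). The superoxide dismutase gene Sod1 went from 6263 to 13866 (1.15 ± 0.08), with further probe sets at 1.58, 1.37, -0.31 and -0.72.

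Of 35 measured Polycomb components, the protein family of Rybp, 12 were lower and 4 higher (34.3% and 11.4%), with a median of -0.19. Among the 34 bright ones the shares were 35.3% and 11.8%, against 24.4% and 15.7% of all bright genes. Phc1, a polyhomeotic subunit of canonical Polycomb repressive complex 1, read 14235, 13506, 11465 and 12022 in set 1 and 6422, 5584, 5575 and 5957 in set 2 (-1.12 ± 0.09). Pcgf2, the RING partner also called Mel18, went from 339 to 158 (-1.13). Of the accessory subunits of Polycomb repressive complex 2, Epop went from 1315 to 529 (-1.27) and Phf1 from 284 to 131 (-1.13). Because each set held OHT- and OHT+ arrays in equal number, these differences are measured beside the Rybp difference and not between its groups. In the list of DNA methylation and retroviral silencing 6 of 26 were lower and 4 higher (23.1% and 15.4%), with a median of 0.02. Among its 25 bright members the shares were 24% and 16%, near the 24.4% and 15.7% of all bright genes. Uhrf1, which brings Dnmt1 to replicated DNA, read 9078, 9553, 7939 and 7702 in set 1 and 3857, 3231, 3249.8 and 3427 in set 2 (-1.31 ± 0.09, with a second bright probe set at -0.39). The maintenance methyltransferase gene Dnmt1 went from 3713 to 1882 (-0.98 ± 0.08), and all 3 of its probe sets were lower. Suv39h2, a histone methyltransferase of heterochromatin, was higher, going from 415 to 932 (1.17 ± 0.07), but further probe sets read 0.25 and -0.32.

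Genes of S phase went both ways, 11 of 40 lower and 7 higher (27.5% and 17.5%). All 40 are bright, and the shares were near the 24.4% and 15.7% of all bright genes. The cyclin E genes parted: Ccne1 went from 6266 to 3148 (-0.98 ± 0.15) and Ccne2 from 356 to 859 (1.26 ± 0.08). Pold1, the catalytic subunit of DNA polymerase delta, went from 3777 to 1692 (-1.16), while an equally bright probe set read -0.22. Lysosome and autophagy genes were lower in 12 of 31 cases and higher in 1 (38.7% and 3.23%). The kinase gene Ulk1, which starts autophagy, read 3226, 3773, 2927 and 2463 in set 1 and 1208, 1090.4, 1026 and 1092 in set 2 (-1.47 ± 0.12), and the lysosomal membrane gene Lamp2 went from 3451 to 1658 (-1.04), with other probe sets from -0.82 to 0.86. Oxidative phosphorylation genes, all of them bright, were lower in 11 and higher in 2 of 46 cases (23.9% and 4.35%), with a median of -0.09. The share of lower ones was thus near the 24.4% of all bright genes, of which 15.7% were higher. Interferon and antigen processing genes were lower in 8 and higher in 1 of 31 cases (25.8% and 3.23%). Among the lower was Tapbp, the peptide loading chaperone, which went from 1485 to 736 (-1.01), with a dimmer probe set at 0.53.

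Of 17 Nodal and BMP targets 4 were lower and 2 higher (23.5% and 11.8%, against 14.5% and 8.77% of all genes). Id1, a direct BMP target, read 551, 732, 683 and 952 in set 1 and 1426, 1799.7, 1412 and 1996 in set 2 (1.20 ± 0.09), and Dusp9, an ERK phosphatase that BMP also induces, went from 2435 to 1089 (-1.19 ± 0.10). Of 18 Wnt targets 2 were lower and 2 higher (11.1% each), with Lef1 going from 164 to 390.1 (1.23) and Axin2 from 261 to 116 (-1.25). Among 31 imprinted genes 6 were lower and 3 higher (19.4% and 9.68%). The retrotransposon-derived gene Peg10 read 125, 133, 137 and 143 in set 1 and 67.6, 64.9, 58 and 28.3 in set 2 (-1.38). Among markers of other germ layers 0 of 25 mesoderm genes passed in either direction by limma over all genes, with 6 at an unadjusted p under 0.05. Of 27 ectoderm and neural genes 5 were lower and 1 higher (18.5% and 3.7%). The summed intensity of the mesoderm list was 1722 to 2229 in set 1 and 1804 to 2131 in set 2. That of the ectoderm and neural list was 22483 to 26185 in set 1 and 17212 to 18198 in set 2, without overlap. Of 16 nuclear long noncoding RNAs 6 were lower and 1 higher (37.5% and 6.25%).

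**Figure D3:**
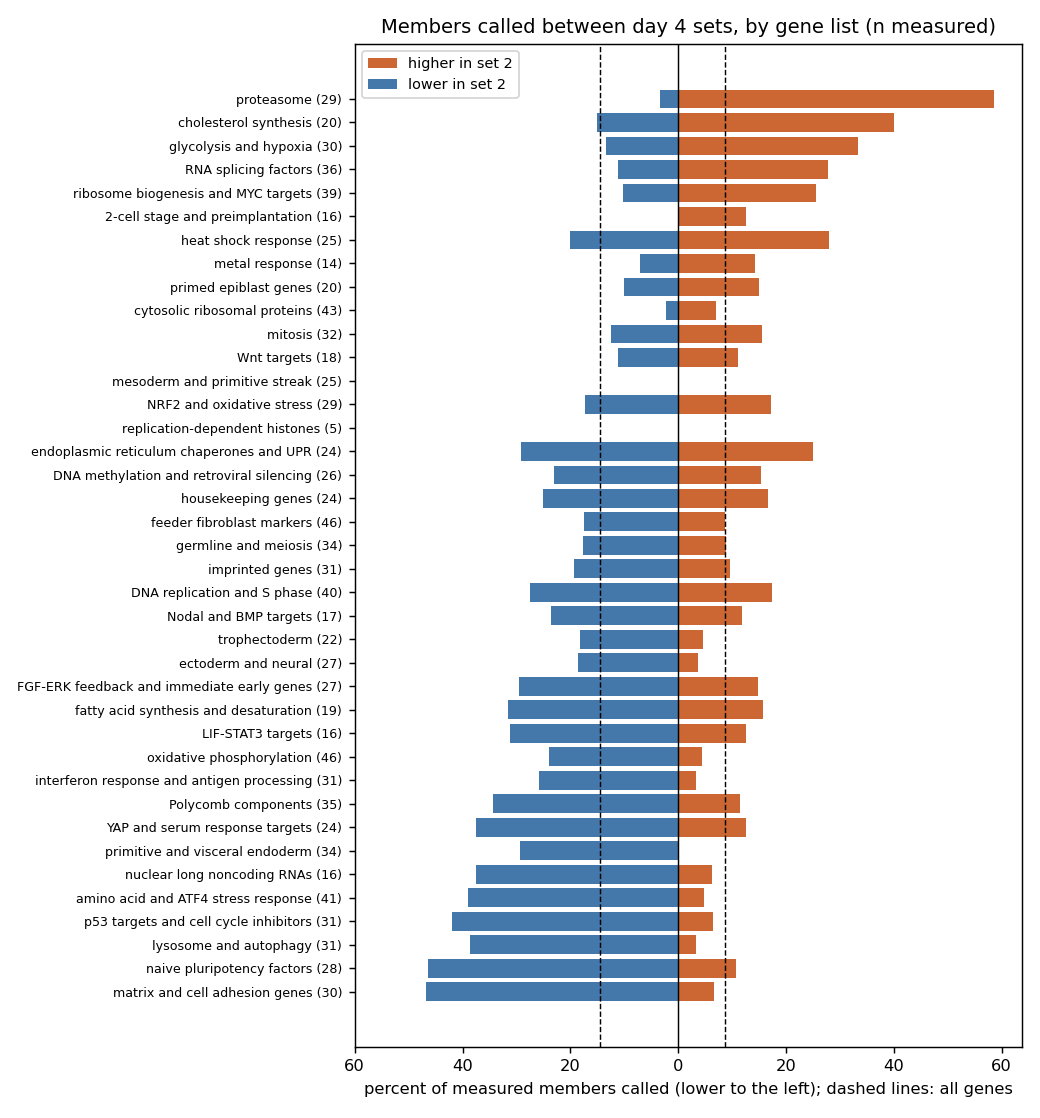
Share of the measured members of each of 39 gene lists that were higher (orange, right) or lower (blue, left) in day 4 set 2, with the number measured in brackets and dashed lines at 8.77% and 14.5%, the shares of all genes. Most lists consist largely of bright genes, for which the shares were 15.7% and 24.4%, without lines here. The proteasome reaches 58.6% higher, and naive pluripotency and matrix genes 46.4% and 46.7% lower.

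Whether the set difference depended on OHT or on the clone was tested by interaction terms. With OHT 0 of 18193 genes passed by limma and 991 (5.45%) had an unadjusted p under 0.05. With the clone 0 passed and 971 (5.34%) had an unadjusted p under 0.05. The OHT difference within each set was also set side by side. Across the 9096 bright genes, which are not independent replicates, Pearson's r between the OHT differences of the sets was 0.622. At least 2-fold differences with OHT were seen in 67 bright genes in set 1 and 76 in set 2, and 41 were in both with the same sign.

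The same comparison at day 12 gave another picture. There 1 gene (0.00550%) passed by limma, Tpsg1, a mast cell tryptase gene named after its value was seen, which was dim with a mean of 66.9 in set 1 and 8.74 in set 2. Even so 3284 genes (18.1%) had an unadjusted p under 0.05, and with an intensity trend in the moderation of the variance 1584 genes passed. The size of the differences is less dependent on the test. The median absolute set difference of bright genes was 0.31 at day 4 and 0.17 at day 12, and 507 and 23 genes reached 1 on the log2 scale. The median SD of the 4 pair differences of a gene was similar, at 0.16 and 0.18. Tested directly, the set difference of day 4 differed from that of day 12 in 3681 genes (20.2%), and in 2417 and 2329 without a clone 10 OHT+ or a clone 15 OHT- array of day 12.

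At day 12 the genes called at day 4 were divided in sign. Of the 1596 higher genes 669 (41.9%) had a positive difference at day 12, with a median of -0.05, and of the 2642 lower genes 1138 (43.1%) a negative one, with a median of 0.05. Of all genes 46.1% were positive and 53.9% negative there. Of the 15 named lower genes 12 were positive at day 12, for example Polr2a (1.21), Prrc2a (0.89) and Palm (0.87). Egr1 (-0.79), Chd4 (-0.87) and Sesn2 (-0.56) were negative on both days. For Egr1 the day 12 arrays read 1742, 556, 1077 and 438 in set 1 and 738, 351, 592 and 335 in set 2, all well below day 4 set 1. Of the 15 named higher genes 11 were positive at day 12, with Smc4 (1.60) as large as at day 4. Relative to the mean of day 12, day 4 set 1 was the nearer set in 59.0% of the higher, 57.6% of the lower and 53.1% of all genes.

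**Figure D4:**
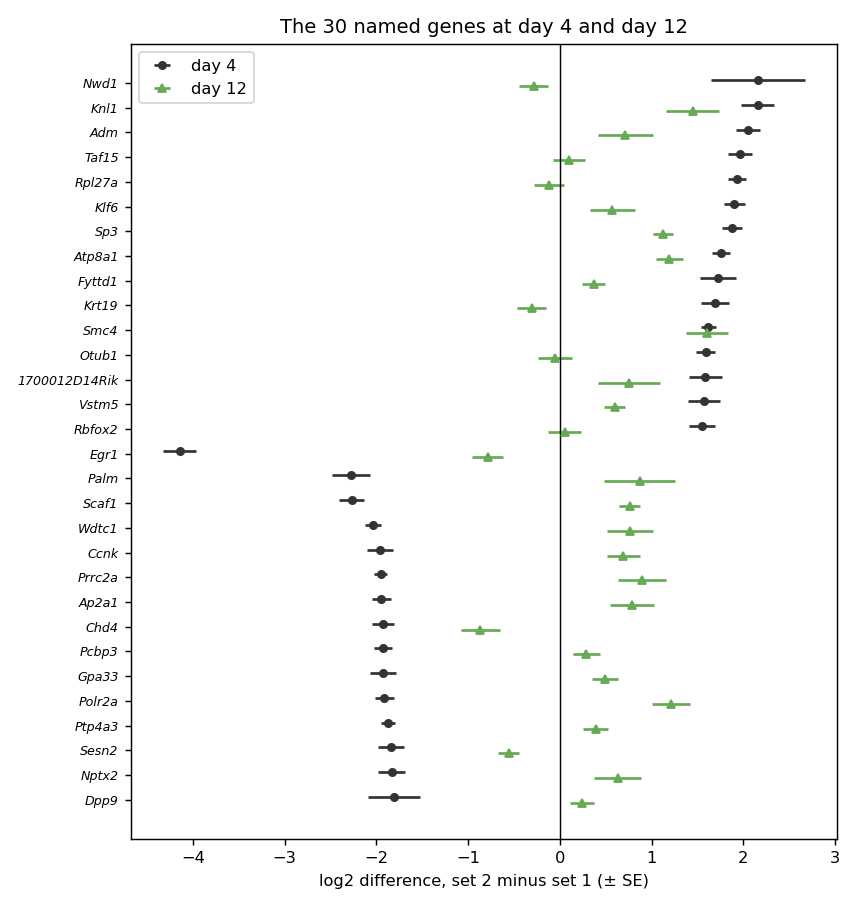
Difference between replicate sets (log2, set 2 minus set 1, ± SE) of the 30 named genes at day 4 (dark circles) and day 12 (green triangles). Egr1 lies at -4.15 at day 4 and -0.79 at day 12, and 12 of the 15 genes lower at day 4 lie above 0 at day 12.

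Probe sets of one gene often disagreed. On this array many genes have several probe sets, which sit at different places in the transcript. Of 3831 genes with at least 2 probe sets above the median level, 182 (4.75%) had all of them higher, 185 (4.83%) all of them lower and 256 (6.68%) at least 1 higher and 1 lower. In 177 of these 256 genes the brightest probe set had a negative difference, counted whether or not it passed the test. The spread between the highest and lowest probe set of these 256 genes had a median of 1.40 at day 4 and 0.51 at day 12. For all 3831 genes it was 0.53 and 0.29. The further bright probe sets of higher genes had the same sign in 75.1% of cases and those of lower genes in 59.7%, with 80 of 1186 and 212 of 1431 called in the opposite direction. For genes that were not called the share was 56.3%, with 555 of 3521 called in the opposite direction. The share of lower genes was thus near that of genes not called. These examples, ranked by how far apart or how alike the probe sets were, were chosen after their values were seen. The noncoding RNA gene Malat1 had probe sets at 2.10, 2.03, 0.93 and -1.06, the heterochromatin protein gene Cbx5 at 2.08 and -0.56, and the polyadenylation factor gene Nudt21 at 2.49 and -0.42. In contrast, both probe sets of the histone chaperone gene Supt16 (1.36 and 3.63), both of the receptor gene Notch3 (-1.76 and -2.89) and all 3 of Vat1 (-1.66 to -2.33) went one way. The call of Malat1 (limma adjusted p = 0.0375) was also lost with the conditions as pairs (limma adjusted p = 0.0708). With the mean of a gene's bright probe sets in place of the brightest one, 1813 genes passed as higher and 2423 as lower, while 194 of the 4238 calls changed sign.

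**Figure D5:**
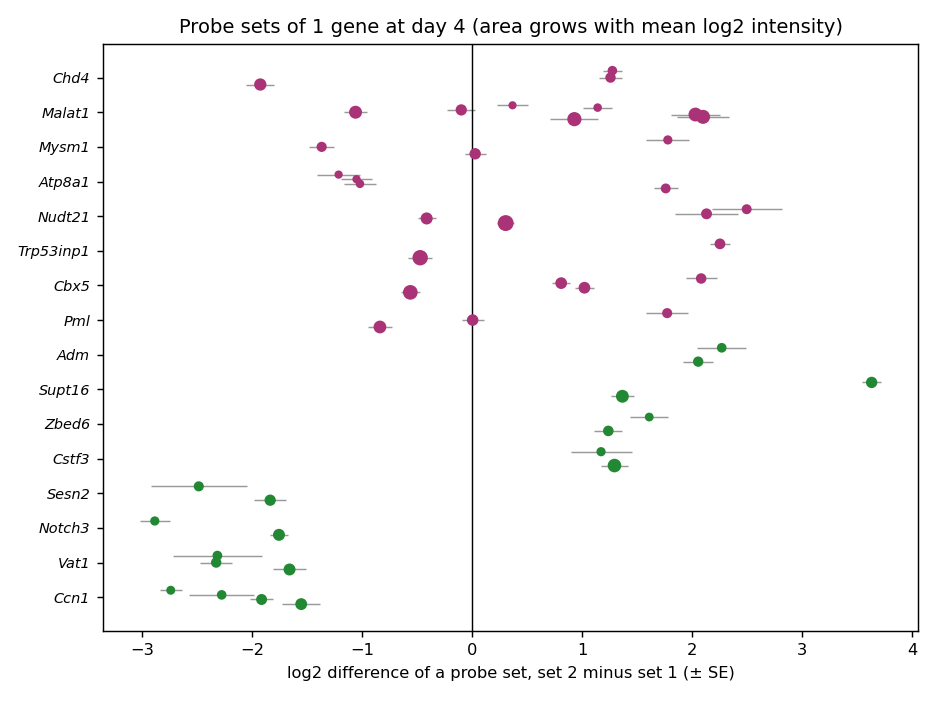
Difference between day 4 sets (log2, set 2 minus set 1, ± SE) of each bright probe set of 16 genes; the area of a point grows with its mean log2 intensity. The 8 genes in purple have probe sets called in both directions, such as Chd4 at -1.93 and 1.27, and the 8 in green have all probe sets on one side, such as Ccn1 from -1.56 to -2.74.

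Control probe sets were read for signs of RNA quality and labelling. The log2 ratio of 3' to 5' signal was lower in set 2 for all 4 control transcripts, by 0.09 for actin, 0.10 for Gapdh, 0.19 for the transferrin receptor and 0.96 for pyruvate carboxylase. The last ran from 1.27 to 1.84 in set 1 and from 0.16 to 0.87 in set 2, without overlap. The bacterial transcripts spiked in before labelling were lower too, by 0.61 for lys, 0.30 for phe, 0.33 for thr and 0.31 for dap, while those added at hybridisation differed by -0.10 to 0.08. Called genes were also set against the base composition of their promoters. The share of lower genes rose from 18.5% in the fifth of bright genes with the least GC in the promoter to 30.2% in the fifth with the most, and that of higher genes went from 18.9% to 13.3%. The median difference moved from -0.02 to -0.15 from the least to the most GC. The part of RNA quality, labelling and base composition in the results was not tested.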

How the data were processed

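RNA of 16 mouse ES cell samples was measured on Affymetrix arrays, and the 8 arrays of day 4 are the subject here. Per the labels' protocols, Trizol RNA was turned into double-stranded cDNA and then biotin-labelled cRNA. The authors deposited linear intensity values (0.144 to 52570). The submitters' processing notes list RMA and Affymetrix Expression Console without versions. All 16 columns hold the same values in a different order with a median of 93.3, so they had been quantile-normalized together, which sets equal totals and hides any overall shift between arrays. The design text names the 430A 2.0 array, while the table holds 45101 probe sets. The comparison had been planned for log2 values and the deposited ones were log2-transformed without an offset.

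Probe sets were named by the platform annotation: 34945 had 1 symbol, 932 several and 9160 none, after 64 control probe sets. Each of 18193 genes was represented by its brightest probe set (mean log2 over 16 arrays). More than 1 probe set was present for 9010 genes. Bright means a mean log2 intensity over the 8 arrays above the median of all genes tested. Differences were fitted with limma 3.58.1 (statmod 1.5.0, R 4.3.3) with clone, OHT and set as terms on the 8 arrays (4 residual degrees of freedom), or, for day 4 against day 12, with a mean for each condition and day on all 16. Errors of log2 differences are standard errors. The fit was tested on simulated data. Named genes were the 15 largest increases and decreases with adjusted p under 0.05, the same sign in 4 of 4 pairs and a bright signal, then up to 5 members of each list with the largest difference among those that passed (with none, the member of smallest p), and the control probe sets. Others are said to have been chosen after their values were seen. The set comparison, the 39 lists and the genes were chosen with earlier results of these data known. Promoter windows of 14452 genes came from RefSeq (GRCm38.p6), and no coordinates are given for probe sets. Alternatives were other scalings, floors, probe set rules, moderation, the replicate block and leaving out arrays. Scanner files and detection calls were not used here.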

Additional observations from a re-analysis of the deposited data

Results flagged for a closer look

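The set difference of a gene at day 4 was compared with its set difference at day 12 by limma over all 16 arrays, and it differed for 85 of the 103 genes named for day 4, at limma adjusted p from 0.00125 to 0.0465. Because these genes were chosen for a large difference at day 4, a smaller one at day 12 follows in part from the choice, and the values are a description. They are the log2 set difference of day 4 minus that of day 12.

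Among the 30 genes named for their size, the value was positive for Nwd1 (2.45), Rpl27a (2.05), Krt19 (2.00), Taf15 (1.87), Otub1 (1.64), Rbfox2 (1.498), Fyttd1 (1.36), Adm (1.34), Klf6 (1.33), Vstm5 (0.98) and Sp3 (0.75). It was negative for Egr1 (-3.36), Palm (-3.15), Polr2a (-3.13), Scaf1 (-3.03), Prrc2a (-2.85), Wdtc1 (-2.80), Ap2a1 (-2.73), Ccnk (-2.65), Nptx2 (-2.46), Gpa33 (-2.42), Ptp4a3 (-2.26), Pcbp3 (-2.22), Dpp9 (-2.05), Sesn2 (-1.28) and Chd4 (-1.06). The largest in size was Egr1. The 4 genes of the 30 that did not pass were Knl1, Atp8a1, Smc4 and 1700012D14Rik.

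Among the other named genes the negative values were Col1a1 (-2.31), Klf2 (-2.20), Slc16a3 (-2.18), Epop (-2.13), Peg10 (-2.02), Ulk1 (-2.02), Nacc1 (-1.99), Pcgf2 (-1.85), Stc2 (-1.78), Itga5 (-1.70), Phc1 (-1.66), Axin2 (-1.66), Thy1 (-1.65), Srebf2 (-1.60), Calr (-1.58), Mybl2 (-1.55), Pfkl (-1.53), Psmd3 (-1.53), Dhcr7 (-1.53), Foxq1 (-1.50), Dnmt1 (-1.48), Klf5 (-1.47), Pold1 (-1.46), Dusp9 (-1.42), Esrrb (-1.42), Ccne1 (-1.41), Col4a1 (-1.40), Etv5 (-1.35), Lamc1 (-1.32), Phf1 (-1.31), Aars (-1.28), Col4a2 (-1.24), Ppp1r15a (-1.21), Fos (-1.20), Bbc3 (-1.14), Slc7a5 (-1.07), Lama1 (-1.002), Aen (-0.93), Actn1 (-0.89), Tapbp (-0.89), Uhrf1 (-0.87), Ccn1 (-0.86), Mdm2 (-0.84), Cdkn1a (-0.65), Atf4 (-0.62) and Rpl37 (-0.59). The positive values were Sod1 (1.48), Ccne2 (1.41), Ier3 (1.13), Pdia3 (1.11), Id1 (1.06), Sc5d (1.03), Psmc1 (0.92), Rpl14 (0.86), Suv39h2 (0.81), Clk4 (0.76), Psmd14 (0.73), Psma5 (0.61) and Bnip3 (0.56).

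Of 206 sets of 4 arrays examined at day 4 (103 genes in both sets), a single array stood away from the other 3 in 9, where the share of the whole range taken by the gap to the nearest array passed the critical value of Dixon's test. Chance alone flags about 1 in 20 such sets, or 10.3 of 206, so the number is near the chance level. In set 1 these were Palm at 561.5 in clone 15 OHT-, Scaf1 at 332.1 in clone 15 OHT-, Mdm2 at 2846 in clone 15 OHT+ and Pou5f1 at 13410 in clone 15 OHT-. In set 2 they were Scaf1 at 61.1 in clone 15 OHT-, Nptx2 at 91.3 in clone 10 OHT+, Slc7a5 at 1120 in clone 10 OHT-, Slc16a3 at 887.4 in clone 15 OHT- and Col1a1 at 173.8 in clone 10 OHT+. The 9 are given as values only.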

How the results depend on the processing

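The direction of the day 4 set difference held in nearly all fits of single named genes and the counts of called genes moved with the number of arrays. Over the 103 named genes and their settings 1743 values kept their direction and side of the threshold, 505 kept their direction but missed it, 6 passed it newly and 8 changed sign. The counts of called genes are not part of this tally. Of the 505, most come from fits of 4 arrays or with 1 array left out. The replicate numbers are the sets themselves, so the replicate block takes the 4 clone and OHT conditions as pairs. It gave 1166 genes higher and 2090 lower, and ended the calls of Nwd1, Dusp4, Sox17, Foxq1, Cebpb, Malat1 and Chac1 among the named genes but no other. At day 12 this block gave 0 genes.

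Testing every probe set with 1 symbol gave 3444 higher and 3668 lower. The excess of lower calls was thus smaller than with the brightest probe set of each gene (1596 higher and 2642 lower). Leaving out any 1 array gave 752 to 953 higher and 1437 to 1643 lower. In the OHT- arrays, the OHT+ arrays, clone 10 or clone 15 alone 0 genes passed, with 1 residual degree of freedom, which says nothing about stability. The other settings gave 1141 to 2347 genes higher and 2423 to 3553 lower. Day 12 gave 487 genes with values under the 25th percentile raised to it, 1584 with an intensity trend and 0 to 0 without any 1 array. The day 4 against day 12 test gave 2329 to 3472 without 1 array, with 2417 and 2329 without a clone 10 OHT+ or clone 15 OHT- array of day 12. The interaction tests gave 0 genes in each setting run.

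Sign changes concerned Nanog at -0.0109 with housekeeping centring and -0.000307 in clone 10 alone, and Pou5f1 at 0.0296 without clone 15 OHT- replicate 1 and 0.0302 without clone 15 OHT+ replicate 2 (-0.0725 to 0.0302 over all single arrays left out), 0.0077 in OHT- arrays alone and 0.0736 in clone 10 alone. With the mean of bright probe sets, a setting chosen after seeing the data, Atp8a1 read -0.38 and Chd4 0.20, since their dimmer probe sets go the opposite way, and Esrrb, Klf5, Stc2, Lamp2 and Tapbp missed the threshold. Cyclic loess gave 1587 higher and 2660 lower. The number of arrays, and dim signal for genes such as Sox17 and Tpsg1, limit the precision.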

Other observations

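Lists not described above gave these counts at day 4, when 14.5% of all genes were lower and 8.77% higher. Among bright genes the shares were 24.4% and 15.7%. Of 16 LIF and Stat3 target genes 5 were lower and 2 higher in set 2 (31.2% and 12.5%), with a median difference of -0.06. Of 20 primed epiblast genes 2 were lower and 3 higher (10% and 15%). Of 16 genes of the 2-cell stage and preimplantation embryo 0 were lower and 2 higher (0% and 12.5%). Germline and meiosis genes were lower in 6 and higher in 3 of 34 cases (17.6% and 8.82%). Trophectoderm genes were lower in 4 and higher in 1 of 22 (18.2% and 4.55%), and fatty acid synthesis genes lower in 6 and higher in 3 of 19 (31.6% and 15.8%). Genes of mitosis were higher in 5 and lower in 4 of 32 cases (15.6% and 12.5%), and metal response genes higher in 2 and lower in 1 of 14 (14.3% and 7.14%). Of 5 measured replication-dependent histone genes 0 passed by limma, with 0 at an unadjusted p under 0.05. The housekeeping list, used as a centring alternative, had 4 of 24 higher and 6 lower (16.7% and 25%), Polr2a (-1.91) among the lower.

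Probe sets without a gene symbol and with several symbols were tested together with all others. Of 9160 probe sets with no symbol 401 were higher and 305 lower in set 2 (7.71% in all), against 2832 higher and 3002 lower of 34945 with 1 symbol (16.7%). Of 932 with several symbols 71 were higher and 72 lower (15.3%). Here the p-values were moderated and adjusted over all these probe sets. The probe sets with 1 symbol tested alone gave 3444 higher and 3668 lower.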
